A study of Mus musculus with 6 samples.

Results

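This account concerns 43 genes of bone morphogenetic protein (BMP) and transforming growth factor beta (TGF-beta) signalling in mouse motor neurons, read by symbol from a table of 56805 genes. The set holds 13 ligands, 10 receptors, 7 Smad genes, 6 target genes and 7 extracellular antagonists and related proteins. All 43 were in the table and all passed the filter on low counts. RNA came from motor neurons of the cervical and of the thoracic spinal cord at e12.5, with 3 libraries per region, and the study's title places them in work on Hox5 genes. Both regions carried the control genotype and received no treatment per the labels, so the only labelled difference is the level of the cord. No source used here gives the strain, how the motor neurons were isolated, or whether a replicate is an embryo, a litter or a pool. The p-values therefore speak only of the spread among these 6 libraries, which may be technical.

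BMP and TGF-beta ligands are secreted dimers that bring type I and type II receptor kinases together. The type I receptor then phosphorylates receptor-activated Smads, which enter the nucleus with Smad4 and change the transcription of genes such as the Id family. In the neural tube, BMPs from the roof plate pattern the dorsal part, whose cells differ from the ventrally born motor neurons. Antagonists such as noggin and follistatin bind ligands outside the cell and keep them from receptors.

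Libraries held 32103071 to 53186131 counts, the highest being thoracic replicate 1. The 9 motor neuron markers were present in all libraries, with sums of 358 to 724 CPM (counts scaled to library size) in cervical and 448 to 669 CPM in thoracic libraries. The 9 interneuron markers summed to 898 to 995 CPM in cervical and 818 to 838 CPM in thoracic libraries. Interneuron genes were thus measured beside those of motor neurons. Pax2 made up most of both sums and was higher in cervical libraries (means 544 and 433 CPM, edgeR adjusted p = 0.0462). From the same list, Gata3 and Sim1 were higher in thoracic libraries (edgeR adjusted p = 0.0249 and 0.0192). The list therefore did not move in 1 direction. The 8 neural progenitor markers summed to 621 to 889 CPM in cervical and 727 to 968 CPM in thoracic libraries. Progenitor genes were thus measured as well. None was called in the main fit, and only Nes was with the replicate block, higher in thoracic libraries (edgeR adjusted p = 9.0e-04). Of 5 dorsal progenitor markers, Olig3 was higher in thoracic libraries (edgeR adjusted p = 0.0291). Means of Pax3, Pax7 and Neurog1 were higher in cervical libraries. The 5 floor plate markers summed to 274, 659 and 613 CPM in cervical replicates 1 to 3 and to 624, 819 and 927 CPM in thoracic replicates 1 to 3. The 10 mesenchyme and meninges markers summed to 22.3, 71.3 and 222 CPM in cervical and 136, 158 and 223 CPM in thoracic libraries. Cervical replicate 1 was the lowest library for both lists. In such bulk samples, fewer cells of a type and less RNA per cell cannot be told apart.

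Levels of most of these genes overlapped between the regions, and the differences that passed a test were in ligands. Tgfb2, which encodes a TGF-beta isoform, was higher in thoracic libraries and was the only member with an adjusted p below 0.05 in the quasi-likelihood test of edgeR over 21972 genes. That is 1 of 43 members (2.33%), beside 0.542% of all tested genes, with 0.191% called toward cervical and 0.350% called toward thoracic libraries. Inhba, which encodes the subunit of activin A, had the largest fold change of the set and was higher in cervical libraries. It did not pass that test but passed when the replicate number was added as a block, a fit in which 2 of 43 members (4.65%) and 1.97% of all genes passed. In that fit 1 member and 0.573% of all genes were higher in cervical libraries, and 1 member and 1.39% of all genes were higher in thoracic ones. No receptor, Smad, target gene or antagonist was called in any of the 14 fits made.

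Upstream sequences are shown for Tgfb2 and Inhba because these are the members whose levels differed by a test, in opposite directions. Each run is the 250 bases before the RefSeq start of the gene in GRCm38.p6, an older build than the mm39 of the counts, written 5′ to 3′ along the gene's strand. Capitals mark matches on either strand to any of 4 motifs. The Smad-binding element was searched as CAGAC. The GC-rich element of BMP Smads was searched as GGCGCC. The E-box was searched as CACGTG. The TATA box was searched as TATAAA, and none of the 4 contains another. The Tgfb2 window is chr1:186705990-186706239 on the minus strand and the Inhba window is chr13:16011601-16011850 on the plus strand.
Tgfb2: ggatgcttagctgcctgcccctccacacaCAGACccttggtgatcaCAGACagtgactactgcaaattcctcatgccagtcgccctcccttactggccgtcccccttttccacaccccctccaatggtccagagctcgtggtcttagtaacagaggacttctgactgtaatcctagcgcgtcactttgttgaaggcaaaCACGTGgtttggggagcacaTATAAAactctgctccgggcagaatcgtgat
Inhba: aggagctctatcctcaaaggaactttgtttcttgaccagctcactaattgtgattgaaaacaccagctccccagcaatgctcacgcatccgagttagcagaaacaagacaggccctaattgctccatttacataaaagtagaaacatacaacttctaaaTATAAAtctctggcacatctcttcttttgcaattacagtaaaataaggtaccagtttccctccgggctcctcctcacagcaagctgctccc
The Tgfb2 window held the Smad-binding element starting 221 and 204 bases before the start, the E-box 51 bases and the TATA box 31 bases before it. The Inhba window held a TATA box 91 bases before the start and no match to the other 3 motifs. Of 32851 promoter windows of this length, 42.2% held the Smad-binding element, 9.59% the GC-rich element, 6.02% the E-box and 12.4% the TATA box. A match describes the letters only, and these data hold no measurement of binding.

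Per kilobase of exon, receptors, Smads and Id genes were the abundant members, and most ligands were scarce. Lengths are the summed exon lengths in the deposited table, so a gene that uses few of its exons is understated on this scale. The highest mean level over all libraries was that of Acvr2b at 42.7 CPM per kb, followed by Tgfbr1 at 41.5 and Id4 at 39.6 CPM per kb. The median member stood at 2.15 CPM per kb, and 12 of 43 exceeded 10 CPM per kb. Among these 12 were 5 receptors, 3 Smads, 3 target genes and Gdf11, the only ligand. In mean CPM, 6 members lay under 1, and the lowest, Gdf7, rested on 87 reads over all 6 libraries.

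**Figure D1:**
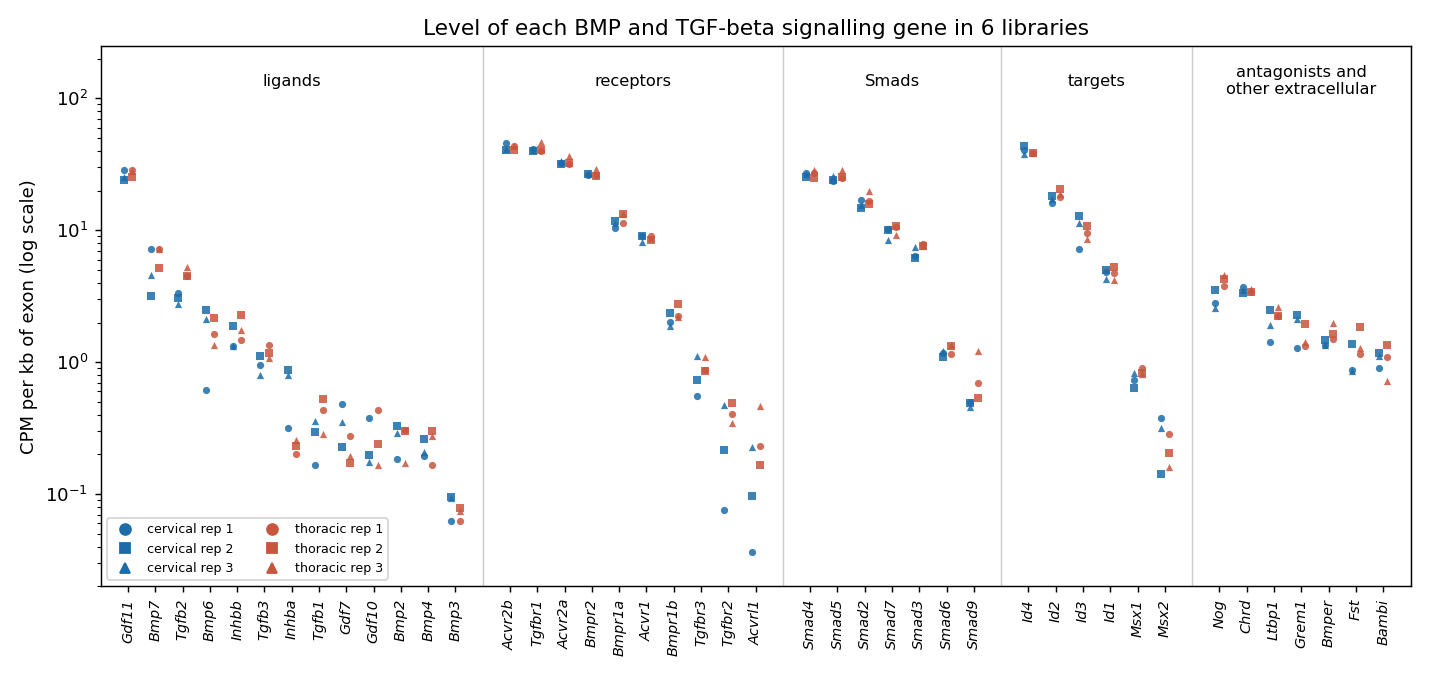
Level of each of the 43 genes in CPM per kb of exon on a log axis, with 1 point per library, grouped by role and ordered by mean level within a role. Colour gives the region and marker shape the replicate. Cervical and thoracic points lie on top of each other for the abundant receptors and Smads, and Tgfb2 and Inhba show separate groups.

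The TGF-beta isoforms Tgfb2, Tgfb3 and Tgfb1 all had lower means in cervical libraries. Tgfb2 (chromosome 1, 186354989 to 186438186 in mm39, minus strand) stood at 19.5, 17.9 and 16.1 CPM in cervical replicates 1, 2 and 3 and at 26.3, 26.3 and 30.7 CPM in thoracic replicates 1, 2 and 3. Every thoracic library lay above every cervical one, and the gap between regions was wider than the spread within either. The means were 17.8 ± 1.72 CPM (SD, n = 3) in cervical and 27.7 ± 2.53 CPM (SD, n = 3) in thoracic libraries, a 1.56-fold difference (log2 ratio of cervical to thoracic -0.64, SE 0.11, adjusted p = 0.0324 by edgeR). The call held in the 7 other settings that kept every library. It was lost in 5 of 6 fits made without a library, with edgeR adjusted p from 0.0631 without thoracic replicate 1 to 0.149 without cervical replicate 3. The direction was the same in all of them, with log2 ratios from -0.71 to -0.56.

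Within the cervical libraries Tgfb2 was highest in replicate 1, where the floor plate and mesenchyme marker sums were lowest. In thoracic libraries it was highest in replicate 3, where both sums were highest. Mean sums in cervical and thoracic libraries were 515 and 790 CPM for floor plate markers and 105 and 172 CPM for mesenchyme markers. With the replicate block, 4 of 5 floor plate and 2 of 10 mesenchyme markers were called, all higher in thoracic libraries. In the main fit none of either list was called. Motor neuron marker sums overlapped between the regions, and no marker of that list was called in the main fit. With the replicate block, Isl1 and Slc18a3 were higher in thoracic libraries (edgeR adjusted p = 0.00105 and 0.0303). Means of Mnx1 (186 and 166 CPM), Prph (80.5 and 64.1) and Lhx3 (28.8 and 28.7) were higher in cervical than in thoracic libraries. The part of these cell types in the difference was not tested. On the opposite strand Gm29491 shares 124 exonic bases with Tgfb2, at a mean of 7.50 counts against 835 for Tgfb2, and the strand setting of the counting is not given in the sources used here.

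Tgfb3 stood at 3.22, 3.76 and 2.72 CPM in cervical and 4.61, 3.96 and 3.67 CPM in thoracic libraries. Its groups overlapped by a narrow margin, and it was not called (edgeR adjusted p = 0.746). Tgfb1, the isoform with the lowest level of the group, ranged from 0.837 to 1.82 CPM in cervical and from 1.45 to 2.64 CPM in thoracic libraries, and was not called either (edgeR adjusted p = 0.720).

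The genes of the activin subunits differed in their pattern. Inhba (chromosome 13, 16186436 to 16206206 in mm39, plus strand) stood at 2.02, 5.57 and 5.13 CPM in cervical replicates 1, 2 and 3 and at 1.29, 1.47 and 1.64 CPM in thoracic ones. Every cervical library lay above the thoracic ones, but replicate 1 lay close to them while the other two stood apart. The means were 4.24 ± 1.94 and 1.47 ± 0.174 CPM (SD, n = 3 each), 2.91-fold apart (log2 ratio 1.54, SE 0.35, adjusted p = 0.1096 by edgeR, and 0.0155 with the replicate block). DESeq2 called it as well (adjusted p = 8.4e-04), and limma-voom did not (adjusted p = 0.226).

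One library weighed on this difference. Without cervical replicate 1 the log2 ratio of Inhba was 1.88 with an edgeR adjusted p of 0.00777, and in the other 5 fits made without a library it lay between 1.29 and 1.63 with edgeR adjusted p of 0.248 to 0.344. Cervical replicate 1 was also the lowest library in the floor plate and mesenchyme marker sums and the highest in the motor neuron sum. Among lists with higher cervical means, macrophage markers summed to 4.28, 14.0 and 9.39 CPM in cervical and 4.85, 8.43 and 4.14 CPM in thoracic libraries. Dorsal root ganglion markers summed to 76.3, 96.6 and 71.3 CPM and to 65.4, 73.3 and 54.4 CPM. Both sums, like Inhba, were highest in cervical replicate 2. Neither took the order of Inhba in thoracic libraries, where Inhba spanned only 1.29 to 1.64 CPM. The interneuron, roof plate and erythroid sums also had higher cervical means. Of these, the interneuron and roof plate sums had no overlap between the regions. The part of these differences in the Inhba result was not tested.

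Inhbb, the subunit of activin B, ranged from 5.66 to 8.04 CPM in cervical and from 6.33 to 9.75 CPM in thoracic libraries and was not called (edgeR adjusted p = 0.821). Expressed per kilobase, Inhbb at 1.68 CPM per kb exceeded Inhba at 0.446 CPM per kb over all libraries. In cervical libraries the means were 1.52 and 0.664 CPM per kb, and in thoracic ones 1.85 and 0.229 CPM per kb.

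Gdf11, a TGF-beta family ligand that acts in patterning along the body axis, was the most abundant ligand and differed little between regions. It stood at 115.7, 97.6 and 103.3 CPM in cervical and 116.8, 103.9 and 113.6 CPM in thoracic libraries. The groups overlapped (log2 ratio -0.08, SE 0.07, adjusted p = 0.877 by edgeR).

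Bmp7 was the most abundant of the BMP genes, at 29.2, 12.7 and 18.5 CPM in cervical and 29.1, 20.7 and 29.1 CPM in thoracic libraries. The spread among cervical libraries was larger than the difference between the region means (log2 ratio -0.39, SE 0.25, adjusted p = 0.780 by edgeR). The log2 ratio was -0.76 without cervical replicate 1 and -0.15 without cervical replicate 2, and the gene was called in neither case. The motor neuron marker sums of the same libraries were 724, 358 and 501 CPM in cervical and 669, 448 and 617 CPM in thoracic libraries. In each region replicate 2 was lowest in both Bmp7 and the marker sum. Whether motor neuron content sets the Bmp7 level was not tested.

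The ligand genes Gdf7, Bmp4, Bmp2, Bmp3 and Gdf10 were scarce in these libraries. Gdf7, a roof plate ligand, ranged from 0.323 to 0.682 CPM in cervical and from 0.245 to 0.392 CPM in thoracic libraries. Bmp4 ranged from 0.434 to 0.587 CPM in cervical and from 0.373 to 0.675 CPM in thoracic libraries. The 5 roof plate markers summed to 4.84 to 5.63 CPM in cervical and 3.12 to 3.80 CPM in thoracic libraries, without overlap and higher in cervical, as was the mean of Gdf7. Most of that sum was Rspo3, at 4.34, 4.11 and 5.29 CPM in cervical and 2.03, 3.10 and 2.84 CPM in thoracic libraries. The transcription factor gene Lmx1a had at most 0.245 CPM in any library. Means of Lmx1a (0.152 and 0.185 CPM), Wnt1 (0.281 and 0.363) and Wnt3a (0.134 and 0.140) were lower in cervical than in thoracic libraries. The mean of Rspo1 was higher in cervical libraries (0.0402 and 0.0187 CPM). The part of roof plate cells in these ligand levels was not tested. Bmp2, Bmp3 and Gdf10 had mean levels of at most 1.47 CPM in either region, and none of these 5 ligands was called. Bmp6 stood at 2.42 CPM in cervical replicate 1 and at 5.25 to 9.77 CPM in the other 5 libraries. It shares 224 exonic bases on the opposite strand with the more abundant Txndc5, so its level is uncertain to that extent.

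**Figure D2:**
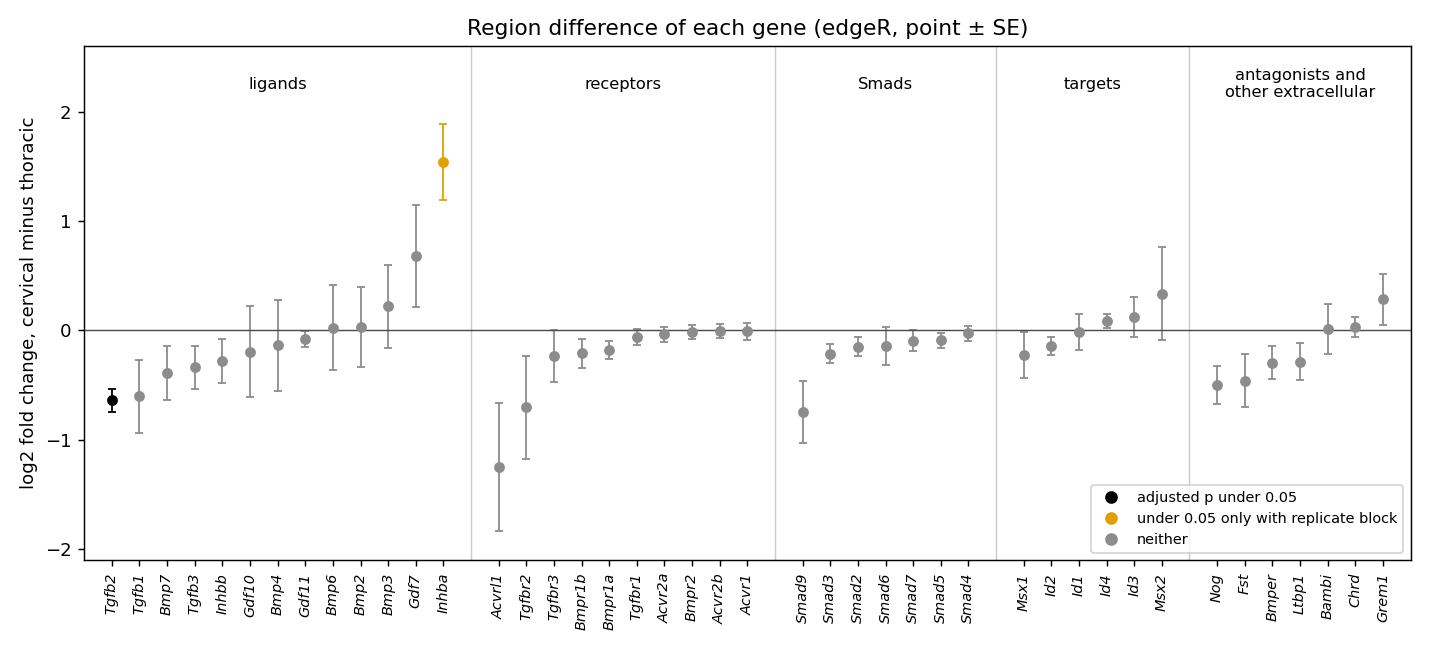
Log2 ratio of cervical to thoracic for each gene (labelled log2 fold change on the vertical axis), from edgeR, with bars of 1 SE, grouped by role. The black point is Tgfb2 (-0.64), the yellow point is Inhba (1.54), which passed with the replicate block and not without it, and grey points passed neither of these 2 fits.

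No receptor was called between the regions, and the abundant ones had the smallest log2 ratios. The type I receptor gene Tgfbr1 stood at 272.3, 259.7 and 265.5 CPM in cervical and 259.6, 263.9 and 306.6 CPM in thoracic libraries. Its groups overlapped, with thoracic replicate 3 as the highest (log2 ratio -0.06, SE 0.07, adjusted p = 0.920 by edgeR). Acvr2b, a type II receptor of activins and Gdf11, stood at 179.0, 159.5 and 163.6 CPM in cervical and 171.9, 160.9 and 171.8 CPM in thoracic libraries (log2 ratio -0.01, SE 0.06, adjusted p = 0.993 by edgeR). Bmpr2, a type II receptor of BMPs, had means of 479.1 ± 9.87 and 483.8 ± 32.9 CPM (SD, n = 3 each), and Acvr2a had 185.5 ± 4.07 and 190.2 ± 14.8 CPM. Acvr2a shares 446 exonic bases with Orc4 on the opposite strand, which leaves its level uncertain to that extent.

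All 10 receptor genes of the set had log2 ratios below 0, from -1.25 to -0.01, while 47.9% of all tested genes lay below 0. Among 7 other receptor and co-receptor genes tested, outside the set, 4 lay below 0 and 3 above. edgeR called none of the 10, and none of them had an unadjusted p below 0.05. DESeq2 and limma-voom also called none, with 1 and 2 at an unadjusted p below 0.05. With the replicate block, and again without a filter on low counts, 3 of 10 had an unadjusted p below 0.05 and none was called. The direction rested partly on thoracic replicate 3, since 6 of 10 lay below 0 without it. Bmpr1a, a type I BMP receptor, had means of 70.8 ± 4.57 and 80.1 ± 6.89 CPM (SD, n = 3 each) with overlapping groups, and the smallest adjusted p of the receptors (edgeR, 0.592). The related Bmpr1b had 12.4 ± 1.48 and 14.3 ± 1.82 CPM, and Acvr1 had 42.3 ± 2.38 and 42.5 ± 1.37 CPM.

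The other 3 receptors were low and varied most among libraries. Tgfbr2, the type II receptor of TGF-beta, stood at 0.620, 1.76 and 3.91 CPM in cervical and 3.34, 4.05 and 2.84 CPM in thoracic libraries. Acvrl1, a type I receptor known from endothelium, stood at 0.155, 0.411 and 0.970 CPM in cervical and 0.989, 0.705 and 1.98 CPM in thoracic libraries. Tgfbr3, a co-receptor also called betaglycan, stood at 3.63, 4.78 and 7.26 CPM in cervical and 5.67, 5.61 and 7.13 CPM in thoracic libraries. In the cervical libraries all 3 genes took the same order as the mesenchyme sum and the endothelium and pericyte sum, with replicate 1 lowest and replicate 3 highest. The 9 endothelium and pericyte markers summed to 17.0, 29.2 and 39.6 CPM in cervical and to 35.0, 39.5 and 38.6 CPM in thoracic libraries. In the thoracic libraries the orders differed. The mesenchyme sum was highest in replicate 3, where Acvrl1 and Tgfbr3 were highest and Tgfbr2 was lowest. The endothelium and pericyte sum was highest in replicate 2, where Tgfbr2 was highest and Acvrl1 and Tgfbr3 were lowest. The part of these cells in the receptor levels was not tested.

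Mean levels of the 7 Smad genes of the set, which does not hold Smad1, were lower in cervical libraries. The difference ran from 1.02-fold for Smad4 to 1.68-fold for Smad9, and none was called. Smad4, the common partner Smad, stood at 101.6, 93.9 and 99.4 CPM in cervical and 101.0, 92.8 and 106.5 CPM in thoracic libraries, with overlap (log2 ratio -0.03, SE 0.07, adjusted p = 0.967 by edgeR). Smad5, a BMP-activated Smad, stood at 174.8, 179.7 and 192.8 CPM in cervical and 184.5, 186.6 and 212.0 CPM in thoracic libraries (log2 ratio -0.09, SE 0.07, adjusted p = 0.826 by edgeR). Smad2, activated by TGF-beta and activin receptors, ranged from 130.6 to 148.9 and from 139.4 to 175.3 CPM.

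The other TGF-beta and activin Smad, Smad3, was one of 2 Smads without overlap between the regions. It stood at 35.2, 34.4 and 41.4 CPM in cervical and 43.7, 42.3 and 42.5 CPM in thoracic libraries. Cervical replicate 3 lay just under the thoracic libraries, which were tight (log2 ratio -0.21, SE 0.09, adjusted p = 0.527 by edgeR). Smad9, the least abundant BMP-activated Smad, stood at 2.697, 2.64 and 2.44 CPM in cervical and 3.75, 2.85 and 6.48 CPM in thoracic libraries. Thoracic replicate 3 stood well above the others (log2 ratio -0.75, SE 0.28, adjusted p = 0.465 by edgeR), and without it the log2 ratio was -0.36. The groups of the inhibitory Smads overlapped, with Smad7 at 43.2 ± 4.35 and 46.1 ± 3.96 CPM and Smad6 at 3.73 ± 0.196 and 4.12 ± 0.335 CPM (SD, n = 3 each).

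All 7 Smads of the set had log2 ratios below 0, from -0.75 to -0.03, beside 47.9% of all tested genes. Smad1, outside the set, had a log2 ratio of 0.01. At an unadjusted p below 0.05 there were 2 of 7, Smad3 and Smad9, beside 8.47% of all tested genes. Without cervical replicate 2, and again without thoracic replicate 3, 6 of the 7 lay below 0.

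Target genes, whose transcription Smads are known to change, overlapped between the regions in every case. Id4, a helix-loop-helix inhibitor, was the most abundant, at 156.8, 168.1 and 146.0 CPM in cervical and 148.0, 147.6 and 148.0 CPM in thoracic libraries. The thoracic values lay within the cervical range (log2 ratio 0.09, SE 0.06, adjusted p = 0.819 by edgeR). Id2 stood at 39.1, 44.7 and 42.4 CPM in cervical and 43.3, 50.3 and 45.7 CPM in thoracic libraries, with overlap (log2 ratio -0.14, SE 0.09, adjusted p = 0.764 by edgeR). Id1, the Id gene with the lowest level, had 5.45 ± 0.453 and 5.50 ± 0.644 CPM, and Id3 had 18.8 ± 5.16 and 17.3 ± 2.05 CPM (SD, n = 3 each). Msx1 and Msx2, homeobox genes induced by BMPs in the dorsal midline, were scarce, at means of 2.26 and 2.64 CPM for Msx1 and 0.914 and 0.711 CPM for Msx2. Of these 6 genes, 3 lay above and 3 below 0, with log2 ratios from -0.22 to 0.34 and no unadjusted p below 0.05.

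Extracellular antagonists were lower than most receptors, and noggin showed the clearest separation. Nog, which binds BMPs, stood at 4.74, 5.99 and 4.35 CPM in cervical and 6.36, 7.21 and 7.78 CPM in thoracic libraries. All thoracic libraries lay above the cervical ones, in the same direction as Tgfb2 (log2 ratio -0.50, SE 0.17, adjusted p = 0.383 by edgeR). Chrd, which encodes the BMP antagonist chordin, had overlapping groups, at 23.4, 20.9 and 22.1 CPM in cervical and 21.2, 21.4 and 22.5 CPM in thoracic libraries (log2 ratio 0.03, SE 0.09, adjusted p = 0.975 by edgeR). It shares 239 exonic bases with Thpo on the opposite strand, at a mean of 46.7 counts against 790 for Chrd.

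Bmper, a secreted BMP-binding protein, also had no overlap, at 6.51, 7.13 and 6.48 CPM in cervical and 7.24, 7.88 and 9.57 CPM in thoracic libraries. The gap between the groups was narrow (log2 ratio -0.29, SE 0.15, adjusted p = 0.686 by edgeR), and without thoracic replicate 3 the log2 ratio was -0.17. Fst, which encodes the activin-binding follistatin, stood at 3.999, 6.31 and 3.94 CPM in cervical and 5.26, 8.53 and 5.87 CPM in thoracic libraries. Each thoracic library exceeded the cervical one of the same number, though the groups overlapped (edgeR adjusted p = 0.690). Grem1 (gremlin) had 7.89 ± 2.26 and 6.50 ± 1.37 CPM, the pseudoreceptor gene Bambi 5.41 ± 0.709 and 5.36 ± 1.64 CPM, and Ltbp1, a binder of latent TGF-beta, 20.7 ± 5.63 and 25.3 ± 2.43 CPM (SD, n = 3 each). None of these was called.

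**Figure D3:**
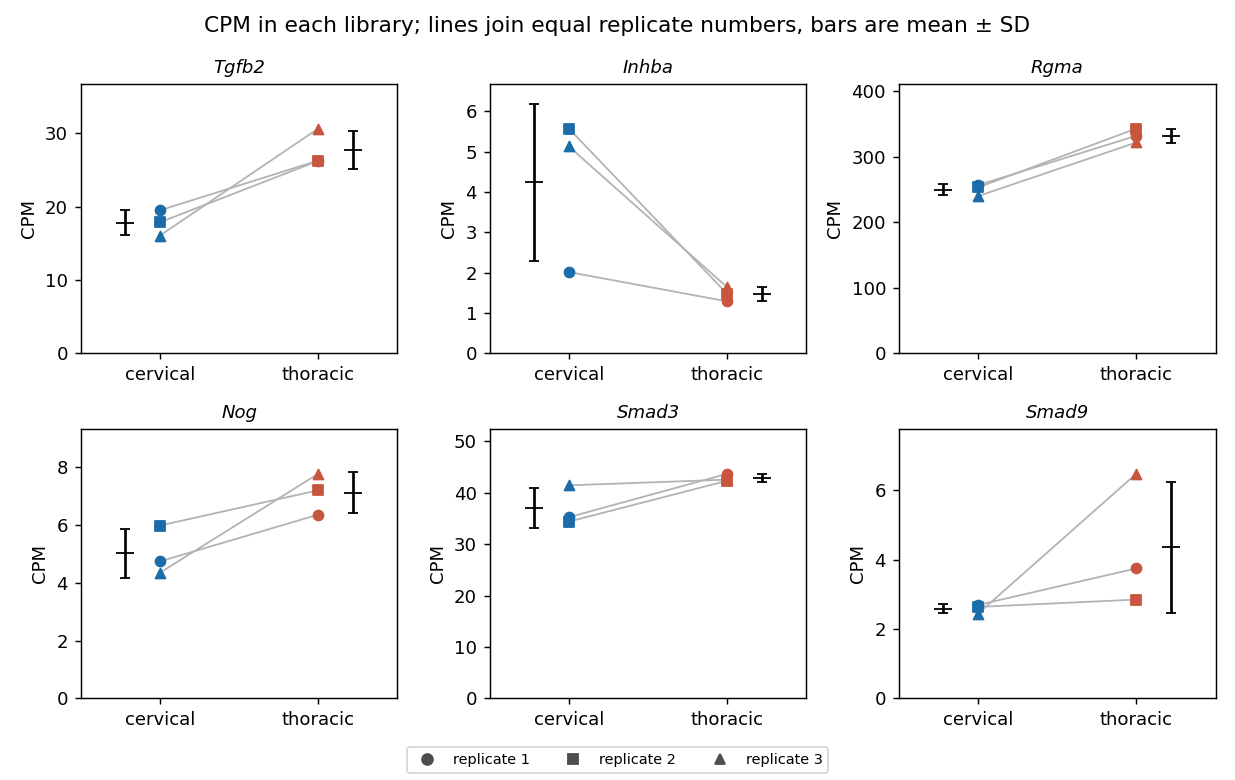
CPM of Tgfb2, Inhba, Rgma, Nog, Smad3 and Smad9 in each library, with lines joining libraries of the same replicate number and bars of mean ± SD beside them. Thoracic points lie above cervical ones in 5 panels, and Inhba shows the reverse with cervical replicate 1 at 2.02 CPM near the thoracic points.

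Across the whole set, 6 of 43 members (14%) had no overlap between the regions, against 13.7% of all tested genes. Inhba was the 1 such member higher in cervical libraries, beside 6.25% of all genes. Tgfb2, Smad3, Smad9, Nog and Bmper were the 5 higher in thoracic libraries, beside 7.50% of all genes. At an unadjusted p below 0.05 there were 5 members (11.6%) beside 8.47% of all genes. With the replicate block there were 11 (25.6%), beside 10.7% of all genes, and 10 of these 11 were lower in cervical libraries. Log2 ratios lay below 0 for 32 members (74.4%), against 47.9% of all genes, with a median of -0.14 against 0.01. Between 30 and 34 of the 43 lay below 0 when each library was left out in turn.

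**Figure D4:**
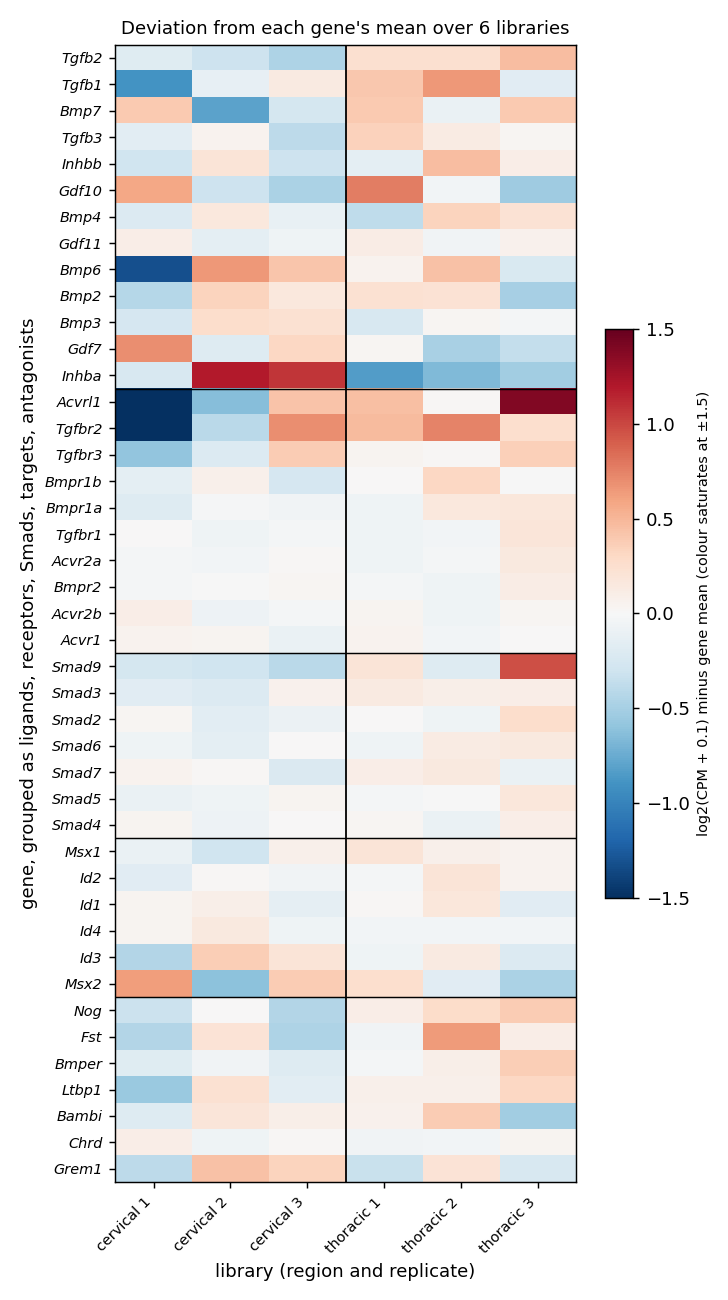
Deviation of log2(CPM + 0.1) from each gene's mean over the 6 libraries, for 43 genes (vertical axis, by role) in 3 cervical and 3 thoracic libraries (horizontal axis). Red is above and blue below the gene's mean, and the rows of abundant receptors and Smads are pale while Inhba, Bmp6, Tgfbr2 and Acvrl1 carry deep colours.

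Another 87 genes of the pathway were listed, and 65 of them passed the filter on low counts. The 1 called gene among them was Rgma, which encodes a membrane-anchored BMP co-receptor that also binds the axon guidance receptor neogenin. Rgma stood at 256.5, 253.1 and 239.8 CPM in cervical and 332.1, 343.0 and 321.8 CPM in thoracic libraries. The regions did not overlap and the libraries of each were tight, 249.8 ± 8.84 against 332.3 ± 10.6 CPM (SD, n = 3 each). Rgma was thus 1.33-fold higher in thoracic libraries (log2 ratio -0.41, SE 0.06, adjusted p = 0.0149 by edgeR). It lost its call without cervical replicate 3 (edgeR adjusted p = 0.109) and without thoracic replicate 2 (0.0574). For these genes the share called was 1.54%, beside 0.542% of all tested genes called in either direction and 0.350% called higher in thoracic libraries.

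The related co-receptor gene Rgmb stood at 376.0, 332.4 and 349.2 CPM in cervical and 402.8, 392.8 and 401.9 CPM in thoracic libraries, without overlap, and was not called (log2 ratio -0.18, SE 0.06, adjusted p = 0.381 by edgeR). Acvr1b, a type I receptor of activins, had a log2 ratio of -0.05 (adjusted p = 0.906 by edgeR) and Smad1, a BMP-activated Smad, one of 0.01 (edgeR adjusted p = 0.985).

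With the replicate block, 4 of the 65 genes passed (6.15%), beside 1.97% of all genes. Toward thoracic libraries there were 3 (4.62%, beside 1.39% of all genes) and toward cervical libraries 1 (1.54%, beside 0.573%). Those added to Rgma were Bmp1, a procollagen protease that also cleaves chordin (118.8 ± 13.0 against 142.6 ± 6.86 CPM, edgeR adjusted p = 0.279, and 0.0444 with the block), and Tgfb1i1, a focal adhesion protein gene induced by TGF-beta (10.4 ± 1.44 against 15.2 ± 0.680 CPM, edgeR adjusted p = 0.127, and 0.0404 with the block). Fstl5, a follistatin-like gene, was higher in cervical libraries of each number (86.5 ± 14.7 against 68.8 ± 9.80 CPM, edgeR adjusted p = 0.481, and 0.0273 with the block). Fstl5 groups overlapped without the pairing, while those of Bmp1 and Tgfb1i1 did not (SD, n = 3 for each mean).

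By role, the smallest unadjusted p among these 65 genes belonged to Bmp1 in the ligands and processing enzymes, Rgma in the co-receptors, Ppm1a in the intracellular regulators, Tll1 in the extracellular regulators and Tgfb1i1 in the targets. Tll1, a protease related to Bmp1, stood at 4.77, 3.17 and 4.88 CPM in cervical and 7.20, 6.35 and 6.64 CPM in thoracic libraries (edgeR adjusted p = 0.254). No overlap was seen for 19 of the 65 (29.2%), beside 13.7% of all tested genes. Of these, 15 were higher in thoracic libraries (23.1% of the 65, beside 7.50% of all genes). The log2 ratio was below 0 for 44 of the 65 (67.7%), beside 47.9% of all genes.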

How the data were processed

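The authors deposited a table of raw counts, 1 whole number for each gene and library. Total RNA was depleted of ribosomal RNA and made into stranded libraries from 10 to 20 ng with 15 PCR cycles, per the labels' protocols. The submitters' processing notes name FastQC 0.11.9, STAR 2.7.5b and featureCounts 2.0.1, and mm39 as the build. Which annotation was used, and whether counting used strand, is not given in the sources used here. Exon lengths were deposited by the authors in the same table as another column.

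Counts were filtered with edgeR 4.0.16 in R 4.3.3 (default filter, minimum count 10), which kept 21972 genes, and TMM gave factors of 0.989 to 1.01. The quasi-likelihood model held region alone, and p-values were adjusted by Benjamini-Hochberg over all genes tested, with calls below 0.05. CPM are TMM-scaled, and each SE is the log2 ratio over the root of its F statistic. Deviations of same-numbered libraries from their region means correlated at 0.207, 0.201 and 0.24, and those of other pairs at -0.214 to -0.0116. Deviations within a region cancel out by construction, so positive values for same numbers force part of the negative ones. The labels do not say that the numbers pair the samples. The main fit left them out, and the fit with the replicate block is given beside it. Alternatives were other scalings and filters, DESeq2 1.42.0, limma-voom (limma 3.58.1), the replicate block and leaving out each library. No pair of replicates agreed within counting noise (10.1 to 16.2 times it, chi-square over its degrees of freedom), so none was treated as 1 library deposited more than once. This does not show that they are independent samples.

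Members, lists and tests were chosen with earlier results of these data known. Library values are given for members called in either fit, at an unadjusted p below 0.05, without overlap, or among the 2 highest per kb of their role, and for others where they help a description. Of the other pathway genes, those called in either fit, the 3 smallest p and the 2 most abundant per role could be named, and Smad1 and Acvr1b were added after their values were seen. Library values of Bmp6, Tgfb1, Tgfb3, Inhbb, Tgfbr2, Tgfbr3, Acvrl1, Smad2 and Fst were also added in that way. RefSeq promoters (GRCm38.p6) matched 30 of 43 members. The values of 1 gene that the rule names are not reported here.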

Additional observations from a re-analysis of the deposited data

How the results depend on the processing

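Over all genes, 119 calls became 747 without a filter on low counts, 409 with DESeq2 and 432 with the replicate block, and 9 to 159 when a library was left out. The cause was not tested. The 1 member called became 3 without a filter (Tgfb2, Inhba and Bmp7), and 2 with DESeq2 and with the replicate block (Tgfb2 and Inhba). It ranged from 0 to 2 when a library was left out, and was 0 in 5 of these 6 fits. The 1 other pathway gene called became 5 without a filter, 2 with DESeq2 (Rgma and Tgfb1i1) and 4 with the replicate block, and ranged from 0 to 2 when a library was left out. Other scalings, a mean CPM of at least 1 and limma-voom left both counts at 1. The block changed no other call among the members and the named pathway genes than those the report gives.

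Among the genes that the naming rule selected, log2 ratios near 0 changed sign when a library was left out. They ranged from -0.105 to 0.0225 for Tgfbr1, -0.0574 to 0.0251 for Acvr2b, -0.0766 to 0.0197 for Smad4, -0.0102 to 0.069 for Chrd, -0.178 to 0.243 for Inha, -0.0833 to 0.0462 for Usp9x, -0.115 to 0.0303 for Twsg1 and -0.059 to 0.0229 for Pmepa1. No gene selected by that rule changed sign in the 7 settings that kept all libraries. Bmp6, which was described outside the rule, had a log2 ratio of 0.03 in the main fit and -0.13 with the replicate block. Depth limits the 6 members under 1 CPM most, the lowest of which had 87 reads over 6 libraries.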

Other observations

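Promoter windows of 250 bases were found for 30 of the 43 genes. GGCGCC, the GC-rich element of BMP Smads, was in 8 of the 30 (26.7%), beside 9.59% of all 32851 windows, and the 8 genes were Bmpr1a, Bmpr2, Tgfbr1, Smad9, Id2, Id4, Chrd and Grem1. CAGAC was in 10 of the 30 (33.3%), beside 42.2% of all windows. These shares were not tested, and base composition was not matched between the windows. None of the 8 genes was called between the regions.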
